A study of Pan troglodytes with 38 samples.

Results

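Hemoglobin and red cell genes were followed as 6 members, HBB, HBA2, HBD, ALAS2, CA1 and AHSP, chosen by gene symbol from the 31373 rows of the gene count table. Each symbol matched 1 Ensembl identifier of the chimpanzee annotation: HBB is ENSPTRG00000040047, HBA2 is ENSPTRG00000049822, HBD is ENSPTRG00000003238, ALAS2 is ENSPTRG00000043518, CA1 is ENSPTRG00000020387 and AHSP is ENSPTRG00000008051. The samples were 38 post-mortem hearts of chimpanzees (Pan troglodytes), each a single polyA RNA-seq library from a separate animal, and the labels put all of them in 1 group and name no treatment or altered gene. Per the study, some of the animals had been exposed to hepatitis B or C virus and some were close relatives, and neither was modelled here. According to the sample table of the study, RNA of 17 hearts was extracted in an earlier year and RNA of 21 later, in 2018, 22 animals were female and 16 male, and ages were not used here. All libraries of the earlier extraction came from an earlier data set of the same group, so extraction year and data set cannot be told apart.

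Hemoglobin of the adult is a tetramer of alpha and beta chains, each holding a heme. Erythroblasts in the bone marrow make its mRNA, and the young red cells they release, the reticulocytes, still carry that mRNA into the circulation although they have lost their nucleus. A heart sample therefore holds globin mRNA mainly through the blood that remains in its vessels and chambers, while its muscle makes myoglobin. In bulk tissue, a lower level cannot be split into fewer red cells and less RNA per red cell.

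Levels are given in CPM, gene counts scaled to a common size of the library's total over orthologous exons, which does not include most mitochondrial reads. These totals ran from 14408012 to 81603350 counts, with a median of 41226040, and 537 and Little_R were among the shallowest libraries, with 60.1% and 48.4% of their gene counts on mitochondrial genes. All 26 of the 26 cardiomyocyte markers were counted in every animal, and their summed level ran from 24481 CPM in Little_R to 215212 CPM in 438, with a median of 166167. The sum was also low in 537 and 495, at 46369 and 61668 CPM. Cardiomyocyte RNA was thus present in all 38 libraries, and presence alone does not show a like cell composition. Animal 529 stood apart in red cell RNA, and values that moved most without it are given both ways.

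HBB, the beta chain of adult hemoglobin, ranged from 0.482 CPM in MD_And to 7098 CPM in 529, a 14725-fold range, around a median of 175 CPM (n = 38). The lowest value rests on 17 counts and the highest on 185404. In 4 animals HBB was under 10 CPM, in 10 it was between 10 and 100 CPM, in 19 between 100 and 1000 CPM and in 5 above 1000 CPM. After MD_And the lowest levels were 2.21 CPM in 462, 3.37 CPM in 570 and 4.94 CPM in 4x0430. All 4 of these animals belonged to the earlier extraction. Below 529 the next levels were 1678 CPM in 4x0043, 1566 CPM in 4x0519, 1509 CPM in 537 and 1306 CPM in 495. The highest animal thus stood well clear of a close-set group, and without it the range was still 3481-fold.

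HBA2, an alpha chain gene, ranged from 0.397 CPM in MD_And to 1797 CPM in 529 with a median of 41.4 CPM, and without 529 its highest level was 634 CPM in 4x0519. HBA2 lies beside a near-identical alpha gene, HBA1, for which no row was found by symbol, so its count is uncertain where reads fit either copy. ALAS2, the erythroid enzyme that starts heme synthesis, had at least 1 count in all 38 animals. Its level ran from 0.0284 CPM in MD_And to 47.2 CPM in 529 with a median of 0.871 CPM, and its counts ran from 1 to 1234. The same animals thus held both ends of all 3 genes.

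The other 3 members were near the limit of detection. HBD, the delta chain of the minor adult hemoglobin, had 111 counts in all animals together, and 19 animals had none. Its highest counts were 25 in 529, 21 in 4X0212 and 16 in 554. AHSP, a chaperone that holds free alpha chains, was at 0 in 15 animals, and reached 76 counts in 529, 24 in 4X0212 and 15 in 554. CA1, the abundant carbonic anhydrase of red cells, was at 0 in 12 animals, and its highest count was 52, in 549, followed by 27 in 529 and 22 in 4x0519. A count of 0 allows up to 3 counts, so that none of the animals at 0 can be said to lack these mRNAs, and such limits cover counting error only. HBD and HBB are near-identical in part, and reads that fit both may have been dropped or split between them.

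**Figure D1:**
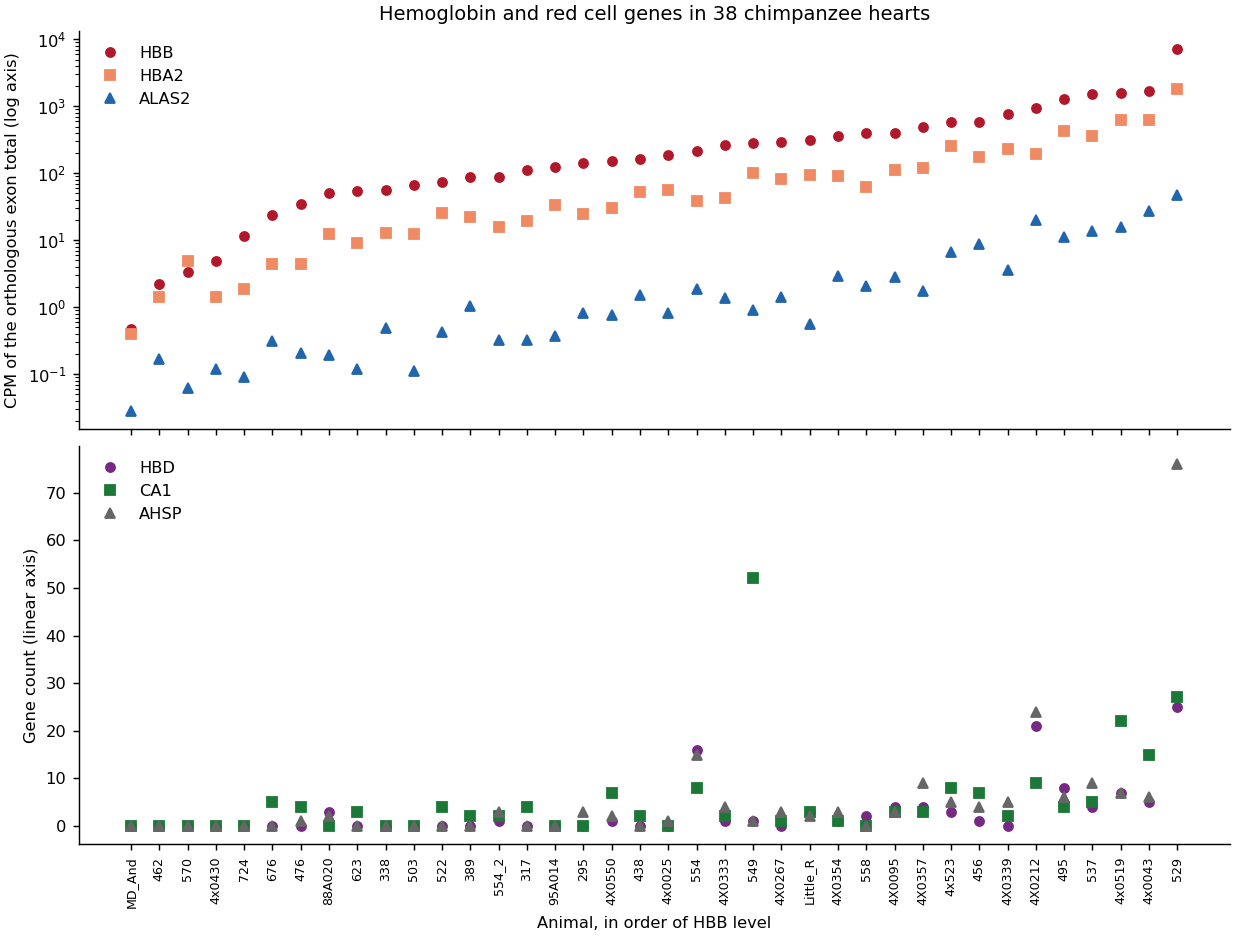
Levels of HBB, HBA2 and ALAS2 in CPM of the orthologous exon total on a log axis (top) and gene counts of HBD, CA1 and AHSP on a linear axis (bottom), 1 point for each of the 38 animals, in order of HBB. HBA2 and ALAS2 climb with HBB over the whole range, while 529 leads AHSP with 76 counts and 549 leads CA1 with 52.

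Animal 529 alone held 28.4% of all HBB counts in the 38 libraries, 24.7% of those of HBA2, 20.6% of ALAS2, 22.5% of HBD, 13.2% of CA1 and 39.2% of AHSP. The 6 members together made up 0.387% of the gene counts in 529, against 0.149% in the next library, 4x0519, and 5.28e-05% in MD_And.

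The spread of the members among animals was described with a negative binomial dispersion per gene, with the library total as offset, and ranked among the 13117 genes that reached 6 CPM in any library. HBB had a dispersion of 2.11 (rank 258), HBA2 of 2.17 (rank 240) and ALAS2 of 2.34 (rank 223), against a median of 0.126 over the ranked genes. These values were not corrected for the mean level, with which, per the study, overdispersion is strongly correlated. ALAS2, with a median of 0.871 CPM, entered the ranking only through animals where it was high. Such entry favours a large dispersion, so the rank of ALAS2 is a description only. Leaving out each animal in turn moved HBB between 1.70 and 2.16, HBA2 between 1.85 and 2.23 and ALAS2 between 2.10 and 2.40. The lowest value of all 3 came without 529. HBD, CA1 and AHSP did not reach 6 CPM in any animal and were not ranked, and fitted alone they gave 4.1, 2.20 and 3.61. Without 529 the value of AHSP was 2.38. Within the earlier extraction the ranked members had dispersions of 2.36, 2.40 and 2.68, and within the later one of 1.71, 1.94 and 2.03, for HBB, HBA2 and ALAS2 in that order. Red cell genes were therefore variable within each year of extraction as well as across both.

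The question of whether the members rise and fall together was put to all 15 pairs of them, on log2 levels with a pseudocount of 0.5 CPM. All 15 pairs were positively correlated over the 38 animals. Spearman's rho ran from 0.660 for CA1 and AHSP to 0.986 for HBB and HBA2, and Pearson's r from 0.591 for HBB and CA1 to 0.969 for HBB and HBA2. The largest Benjamini-Hochberg adjusted p over the 15 pairs was 2e-05 for rho and 0.00152 for r (two-sided permutation tests, 100000 resamples, whose smallest unadjusted p is 1e-05). HBB and ALAS2 had a rho of 0.953 and an r of 0.837. HBD and AHSP, both scarce, had a rho of 0.823 and an r of 0.905. The levels of a pair share the total of their library.

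Without 529 the rho values ran from 0.635 to 0.984, and all 15 pairs stayed under an adjusted p of 0.05. The lowest Pearson's r fell to 0.386 there. Leaving out the 2 animals farthest from the median of the gene on the x axis gave rho from 0.609 to 0.983 and r from 0.395 to 0.969. Within the earlier extraction (n = 17) rho ran from 0.594 to 0.988 with permutation p adjusted to at most 0.0133, and within the later one (n = 21) from 0.565 to 0.987 with adjusted p of at most 0.00853. In the authors' normalized matrix, which holds 37 of the animals and, of the members, HBB and HBA2, that pair had a rho of 0.959.

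**Figure D2:**
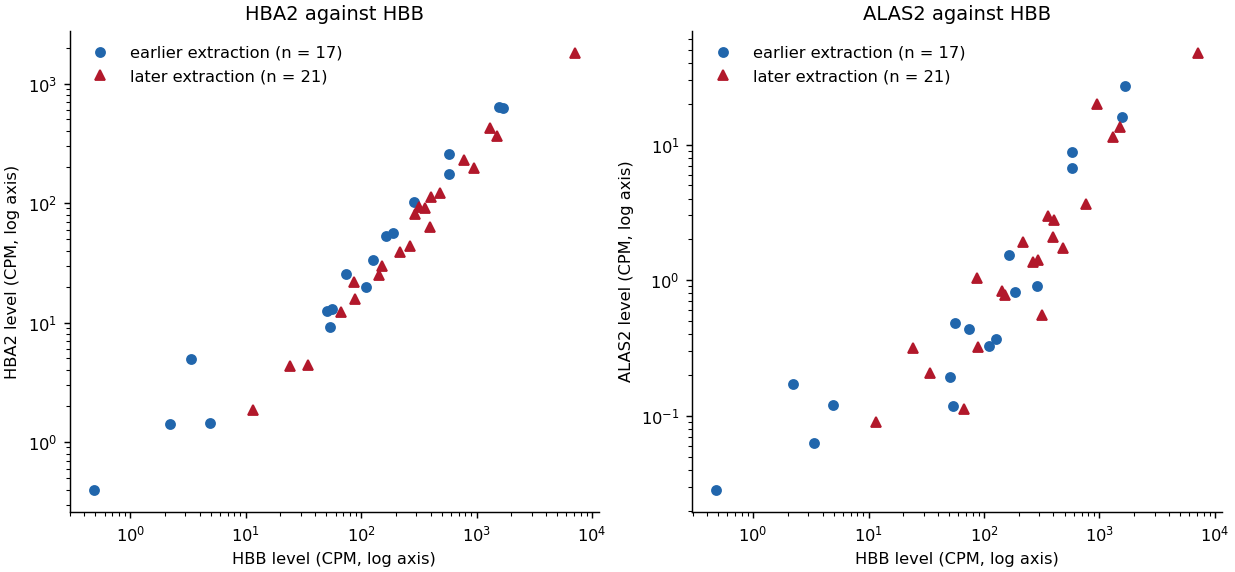
HBA2 (left) and ALAS2 (right) against HBB, in CPM on log axes, 1 point per animal, with the earlier extraction as circles and the later one as triangles. Both genes follow HBB in each extraction, with 570 as the only animal whose HBA2 level (4.91 CPM) is above its HBB level (3.37 CPM).

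Slopes on HBB were estimated with edgeR's quasi-likelihood test over all genes, with extraction year as a term. A slope is the log2 change of a gene for each doubling of HBB, with HBB taken from the gene counts. A gene with a slope of 1 keeps a fixed proportion to HBB as counted in that way. HBA2 rose with a slope of 0.98 ± 0.035 (SE, n = 38, adjusted p = 1.56e-23), and it was the only other member with enough counts to pass the filter. Without 529 its slope was 0.97 ± 0.039. For comparison, 336 of the 14141 other genes tested (2.38%) rose with HBB and 77 (0.545%) fell, and the median slope of all genes was 0.0019.

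The remaining members were fitted in the same model over all 26938 genes with at least 1 count, a setting in which 3.69% of genes rose. All 5 members other than HBB rose there. ALAS2 had a slope of 0.94 ± 0.063 (SE, edgeR adjusted p = 4.14e-14) and AHSP of 0.87 ± 0.093 (adjusted p = 3.5e-08). HBD had a slope of 0.77 ± 0.12 (adjusted p = 0.000187) and CA1 of 0.59 ± 0.11 (adjusted p = 0.000769). Without 529, where 1.56% of genes rose, these 4 slopes were 0.94, 0.83, 0.77 and 0.57, and the largest of their edgeR adjusted p was 0.0133, for CA1. Differences between the slopes of the members were not tested.

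The proportions between members were compared as ratios of counts within an animal. In the 32 animals with at least 1000 HBB counts, HBA2 had 257 ± 77.1 counts (SD) per 1000 HBB counts, from 129 in 476 to 441 in 4x523, a ratio of counts that was not scaled by transcript length. ALAS2 had 7.04 ± 4.45 counts per 1000 HBB counts, from 1.68 in 503 to 20.9 in 4X0212. The exact 95% intervals of these extremes did not overlap, at 116 to 143 against 433 to 448 for HBA2 and at 0.618 to 3.67 against 19.6 to 22.4 for ALAS2. These extremes were picked from 32 animals, and the intervals cover the counting error of HBA2 or ALAS2 alone, with the HBB count taken as fixed. The HBB count also depended on how it was made. Over orthologous exons it was 1.40 times the gene count in 4x523 and 1.66 times in 4X0212. In 476 and 503 it was 1.18 times. The part of this in the ratios was not tested. In 570, where HBB had only 107 counts, HBA2 had 156 counts, or 1458 per 1000 (95% interval 1238 to 1706). CA1 stood at 3.85 per 1000 HBB counts in 549, AHSP at 1.64 and HBD at 1.75 per 1000 in 554, against 0.381, 0.253 and 0.184 in the summed counts of all animals but 529. The values of AHSP and HBD in 554 rest on 15 and 16 counts, and CA1 was at 5.01 per 1000 in 676, on 5 counts. The 3 scarce members were thus not highest, in proportion to HBB, in 529, the animal that had the most HBB. AHSP was still above its summed value there, at 0.410 per 1000 (95% interval 0.323 to 0.513), with CA1 at 0.146 and HBD at 0.135.

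HBA2 was scarcer relative to HBB in the RNA of 2018. Animals with at least 1000 HBB counts had 303 ± 82.9 HBA2 counts per 1000 HBB counts in the earlier extraction (n = 13) and 226 ± 55.7 in the later one (n = 19), and the ranges of 171 to 441 and 129 to 327 overlapped. The model with HBB as a term used all animals, also those under 1000 HBB counts. Of these, 462, 570, MD_And and 4x0430, of the earlier extraction, had 637, 1458, 824 and 293 HBA2 counts per 1000 HBB counts. Animals 676 and 724, of 2018, had 180 and 159. The model was not fitted without the animals under 1000 HBB counts. In it, HBA2 at a given HBB level was lower in 2018 by a log2 difference of -0.70 ± 0.18 (SE, edgeR adjusted p = 0.0128). This comparison was made after the ratios had been seen. In the extraction year term 8.22% of the 14142 genes were called. The difference was -0.70 without 529 and -0.68 without the 2 animals farthest from the median of HBB. It may be read only as a difference between the extraction sets, in which data set and extraction cannot be told apart.

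**Figure D3:**
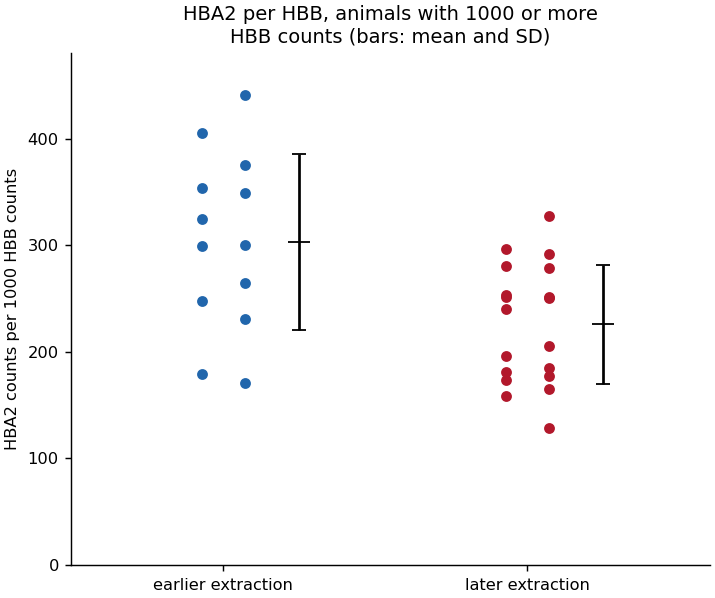
HBA2 counts per 1000 HBB counts in the animals with at least 1000 HBB counts, 13 of the earlier extraction and 19 of the later one, with the mean and SD of each beside the points. The earlier points average 303 and the later ones 226, and the ranges overlap.

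The levels themselves did not pass the test between years or between sexes. HBB had a median of 110 CPM in the earlier extraction and 293 CPM in the later one, a fitted log2 difference of 0.64 ± 0.75 (SE, later minus earlier, edgeR adjusted p = 0.592), in a comparison in which 15.8% of 15392 genes were called. HBA2 differed by 0.03 ± 0.76 and ALAS2 by 0.15 ± 0.82, each with an edgeR adjusted p above 0.9, and without 529 the estimates were 0.12 ± 0.67 for HBB, -0.47 for HBA2 and -0.33 for ALAS2. Males minus females gave 1.35 ± 0.74 for HBB (medians of 219 and 175 CPM, adjusted p = 0.65), 1.55 ± 0.76 for HBA2 and 0.80 ± 0.82 for ALAS2, where 0.227% of genes were called. Without 529, a male, these sex differences were 0.56 ± 0.67, 0.79 ± 0.69 and 0.07 ± 0.76, and the male median of HBB was 152 CPM, below that of females. None of the 3 tested members was called in either comparison, and the standard errors of about 0.75 leave changes of 2-fold unresolved.

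The scarce members could be tested between years only without the filter, where 13.8% of genes were called. AHSP was then higher in 2018 by 2.5 ± 0.76 on the log2 scale (edgeR adjusted p = 0.0224), with 26 counts over the 17 animals of the earlier extraction and 168 over the 21 of 2018. Without 529, which holds 76 of those counts, the difference was 1.75 ± 0.68 and did not pass (adjusted p = 0.0784), where 13.4% of genes were called. HBD gave 2.11 ± 0.77 (adjusted p = 0.0612) and CA1 -0.18 ± 0.66, and without 529 HBD gave 1.58 ± 0.76 (adjusted p = 0.167) and CA1 -0.62 ± 0.67.

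By primate center, given as a description only because centers hold between 1 and 21 animals, the median of HBB was 405 CPM over the 13 animals of SNPRC and 88.6 CPM over the 21 of Yerkes. SNPRC animals ran from 4.94 to 1678 CPM and Yerkes animals from 2.21 to 7098 CPM, so that the centers overlapped over nearly all of their range.

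HBB was compared with 4 measures of library quality, RIN (the RNA integrity number), the orthologous exon total, the mitochondrial share of gene counts and the summed level of the cardiomyocyte markers. Over all 38 animals no relation passed in a permutation test adjusted over the 4. Spearman's rho was -0.106 for RIN, -0.247 for the total, 0.244 for the mitochondrial share and -0.190 for the cardiomyocyte sum, and the smallest adjusted p was 0.281. Pearson's r was -0.099 for RIN, -0.243 for the total, 0.391 for the mitochondrial share (permutation p = 0.0155, adjusted p = 0.062) and -0.224 for the cardiomyocyte sum. Leaving out the 2 animals farthest from the median of the mitochondrial share gave an r of 0.333.

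The same relations were computed within each extraction. In the RNA of 2018 (n = 21) HBB was higher in libraries with smaller totals (rho = -0.655, r = -0.581, permutation p adjusted to 0.00768 and 0.0119) and with larger mitochondrial shares (rho = 0.517, r = 0.596, adjusted p = 0.036 and 0.0119). In the earlier extraction (n = 17) rho was 0.304 for the total and -0.179 for the mitochondrial share, with adjusted permutation p of 0.527 and 0.653. The difference between years was not tested. The HBB level is a count divided by the orthologous exon total, so both sides of the relation to that total hold it. Most mitochondrial reads lie outside this total. With the total of all gene counts as library size, over all animals, rho was -0.146 for the exon total and 0.139 for the mitochondrial share. That library size was not used within the 2018 libraries alone. The part of depth and mitochondrial reads in the 2018 levels of HBB was not tested.

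**Figure D4:**
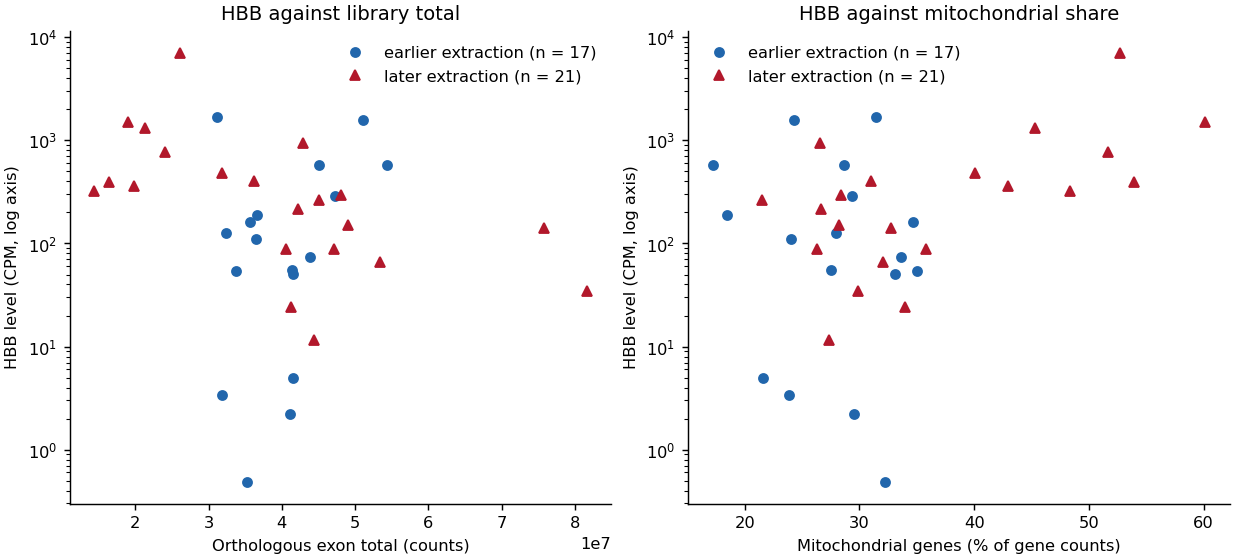
HBB level in CPM on a log axis against the orthologous exon total in counts (left) and the mitochondrial share of gene counts in percent (right), 1 point per animal, by extraction year. The CPM is a count divided by the same exon total. The triangles of 2018 fall with the total (rho = -0.655) and rise with the mitochondrial share (rho = 0.517), while the circles of the earlier extraction give 0.304 and -0.179.

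Genes with a symbol that passed the filter were ranked by how closely their levels followed HBB over the 38 animals. The first 10 were HBA2, with a rho of 0.986, and then KLF8 (0.685), IZUMO4 (0.661), DDX39B (0.652), PCED1B (0.645), DPT (0.641), IL16 (0.635), CHD1L (0.634), ADGRB1 (0.633) and MAPK8IP1 (0.632). A wide gap thus lay between the alpha globin gene and the other genes that passed the filter. The members that the filter left out of this ranking were above KLF8, with a rho of 0.953 for ALAS2, 0.818 for AHSP, 0.745 for HBD and 0.698 for CA1. KLF8 encodes a zinc finger transcription factor, DDX39B an RNA helicase, DPT a matrix protein of connective tissue and IL16 a cytokine of lymphocytes. These 10 genes were chosen for their correlation with HBB, so that their slopes are a description. Of the 10, 8 were called in the edgeR fit and 5 without 529. The slopes of the 3 that lost their call moved little there, from 0.22 to 0.22 for IZUMO4, 0.27 to 0.26 for DPT and 0.0961 to 0.0959 for MAPK8IP1. With the mitochondrial share as a term, KLF8, ADGRB1 and MAPK8IP1 were not called (edgeR adjusted p = 0.0592, 0.0617 and 0.121). HBA2, IZUMO4, PCED1B, DPT and IL16 kept their calls with that term. KLF8, IZUMO4, DDX39B, DPT, IL16, ADGRB1 and MAPK8IP1 were highest in 537, the library with the largest mitochondrial share. CHD1L had a rho of 0.272 within the earlier extraction and of 0.808 within the later one. Slopes outside HBA2 were shallow, at 0.22 ± 0.050 for KLF8 and 0.06 ± 0.019 for DDX39B, which did not pass.

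The 10 genes with a symbol and the smallest p among those that rose with HBB are described singly, with no test of a shared theme. Besides HBA2 and MT-ATP8, they were RGS1, a regulator of G protein signalling in lymphocytes (slope 0.56 ± 0.083), the chemokine receptor CXCR4 (0.38 ± 0.058), the T cell transcription factor TCF7 (0.33 ± 0.052), the T cell surface proteins CD5 (0.43 ± 0.069) and CD6 (0.39 ± 0.064), granzyme K, GZMK (0.51 ± 0.083), RASGRP1, which activates Ras in lymphocytes (0.35 ± 0.057), and the immunoglobulin light chain gene IGLC3 (0.76 ± 0.13). Their edgeR adjusted p ran from 9.76e-05 for RGS1 to 0.000592 for IGLC3. Without 529, 8 of the 10 were still called, with CD5 and RASGRP1 at adjusted p of 0.0734 and 0.0725. RGS1 rose from a median of 0.685 CPM to 47.2 CPM in 529, and CXCR4 from a median of 11.2 CPM to 476 CPM in 4x0043. Their rank correlations were weaker than these p-values may convey, with a rho of 0.391 for RGS1 and 0.474 for CXCR4. Within the earlier extraction rho was 0.725 for RGS1, 0.686 for IGLC3, 0.588 for RASGRP1 and 0.490 for CD5, and within the later one 0.104, 0.253, 0.257 and 0.234, and the differences between extractions were not tested.

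MT-ATP8, a subunit of the mitochondrial ATP synthase, had a slope of 1.07 ± 0.14, steeper than any of those. Its level was 11721 CPM in 529 against a median of 2.6 CPM, and without 529 the slope was 0.77 (adjusted p = 0.00874). The gene overlaps MT-ATP6, so its count is uncertain, and 52.7% of the gene counts of 529 were mitochondrial.

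Fewer genes fell. TMEM38B, a cation channel of the endoplasmic reticulum, fell most clearly, by 0.12 ± 0.023 on the log2 scale per doubling of HBB (adjusted p = 0.00385). VPS29, of the retromer complex, fell by 0.077 ± 0.017 (adjusted p = 0.0069), and these were the 2 of the 10 named genes that were also called without 529. The other 8 were DENR, BBS5, GDPD1, PFDN4, DPY30, COA5, PLCL1 and IFIT1, an interferon-induced gene with the steepest fall among them, 0.24 ± 0.057 per doubling. The slope of IFIT1 was -0.31 in the earlier extraction and -0.08 in the later one (rho = -0.637 and -0.113). IFIT1 was highest, at 1039 CPM, in 462, an animal with little HBB.

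Other genes of the red cell were then taken from lists of the pathway. Of 7 other globins 6 had a row, and all 6 were too scarce for the filter. With no filter, 3.69% of all genes rose with HBB, or 1.56% when 529 was left out. Without the filter HBG1 and HBG2, the fetal gamma chains, had slopes of 1.22 ± 0.10 and 1.15 ± 0.11, and HBM and HBQ1, of the alpha cluster, of 0.84 ± 0.10 and 0.57 ± 0.12, and all 4 rose. Their highest counts were 62, 57, 93 and 33, all in 529, and 27 animals had no count of HBG1. The embryonic genes HBZ, with a slope of 0.23 ± 0.13, and HBE1, with 0.06 ± 0.11, did not pass, and HBZ was highest in 4X0354, with 40 counts. Without 529 HBG1, HBG2, HBM and HBQ1 rose again, at slopes of 0.95, 0.92, 0.82 and 0.50.

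Of 14 tested genes of the red cell membrane and surface, 1 rose, ACHE, the acetylcholinesterase that red cells and nerve endings carry (0.32 ± 0.073), none fell, and the median slope was -0.02. Over all genes 2.38% rose. The call of ACHE was lost without 529. Without the filter, where 3.69% of all genes rose, 3 of 20 did. They include the anion exchanger SLC4A1 (0.57 ± 0.11), a defining protein of the red cell membrane, which reached only 42 counts. Of 15 heme synthesis genes none rose or fell, with a median slope of -0.02, although ALAS2 rose as a member. Most of these enzymes are made in every tissue. Of 10 erythroid transcription factors none passed. Without the filter GATA1 (0.45 ± 0.12), GFI1B (0.37 ± 0.10) and MYB (0.36 ± 0.10), of 14, rose, against 3.69% of all genes. Each had no more than 28 counts, and these calls were lost without 529.

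Of 33 genes of the reticulocyte and red cell cytosol, none rose and 1 fell, against 0.545% of all genes falling. It was MARCHF8, a membrane-bound ubiquitin ligase, which fell by 0.07 ± 0.018 per doubling of HBB. The median slope of the list was -0.01. Of 12 genes of haptoglobin, hemopexin and heme handling none passed, with a median slope of -0.0049. In the fit with the filter, the medians of the membrane, heme synthesis, cytosol and heme handling lists lay near the median of all genes, 0.0019. HBA2 was the only member besides HBB tested there, and no other globin was. Without the filter, where the median slope of all genes was 0.0097, the members other than HBB rose, as did HBG1, HBG2, HBM and HBQ1. HBZ and HBE1 did not pass in that fit.

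Markers of other cell types of blood and heart were read beside HBB. Of 17 tested markers of T and NK cells, 11 rose and none fell, against 2.38% of all genes rising, and their median slope was 0.32. The T cell receptor chains CD3D and CD3E had slopes of 0.34 ± 0.078 and 0.36 ± 0.073, the kinases LCK and ZAP70 of 0.36 ± 0.081 and 0.35 ± 0.066, and CD8A of 0.26 ± 0.059. The summed level of the 22 markers found ran from 9.23 CPM in 88A020 to 745 CPM in 529, with a median of 65.7. Without 529, where 0.29% of genes rose, CD6 was the only marker of the 17 called, and the median slope was 0.24. Without 4x0043, where 1.74% of genes rose, 10 of the markers were called. Within the earlier extraction, where 0.0143% of genes rose, none was called and the median slope was 0.31. Within the later one, where 9.16% of genes rose, 9 of 15 were called and the median was 0.35.

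B cell markers were scarce, and only 2 passed the filter, neither called. Without the filter, where 3.69% of all genes rose, 9 of 11 rose, with a median slope of 0.60. The 9 include MS4A1 (0.71 ± 0.10) and CD79A (0.62 ± 0.12). The same number rose without 529, where 1.56% of genes rose. All 9 were highest in 4x0043, and the summed level of the list was 266 CPM there against a median of 5.29 CPM and a lowest of 1.6 CPM in 462. Without 4x0043, where 2.76% of genes rose, 8 of 11 rose and the median slope was 0.43.

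Of 12 neutrophil markers 2 rose, among them CSF3R (0.26 ± 0.063), against 2.38% of all genes. Their list median was 0.10, and neither of the 2 was called without 529. NRGN was the 1 platelet marker of 12 that rose (0.18 ± 0.049), and of 10 monocyte markers none did. Neutrophil markers summed to 783 CPM in 338, which had an HBB level of 55.8 CPM, below the median. The differences between the lists of white cell markers were not tested.

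Fibroblast markers were the other list with many calls. Of 15 tested, 7 rose and none fell, against 2.38% of all genes rising, with a median slope of 0.21. Those that rose include the collagens COL1A1 (0.24 ± 0.070), COL1A2 (0.23 ± 0.066) and COL3A1 (0.23 ± 0.067), DPT (0.27 ± 0.061) and the transcription factor TCF21 (0.26 ± 0.058). Without 529, where 0.29% of genes rose, none was called and the median slope was 0.18. With the mitochondrial share as a term, where 0.757% of genes rose, 1 was called. Within the earlier extraction, where 0.0143% of genes rose, none was called, at a median of 0.11. Within the later one, where 9.16% of genes rose, 13 were, at a median of 0.41. The summed fibroblast level ran from 946 to 15109 CPM, highest in 537, whose mitochondrial share of 60.1% was also the highest.

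Of 26 cardiomyocyte, 17 endothelial and 12 smooth muscle and pericyte markers none passed, with median slopes of -0.03, 0.03 and 0.06. The parts of blood content, other cell types and library quality in these slopes were not tested.

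**Figure D5:**
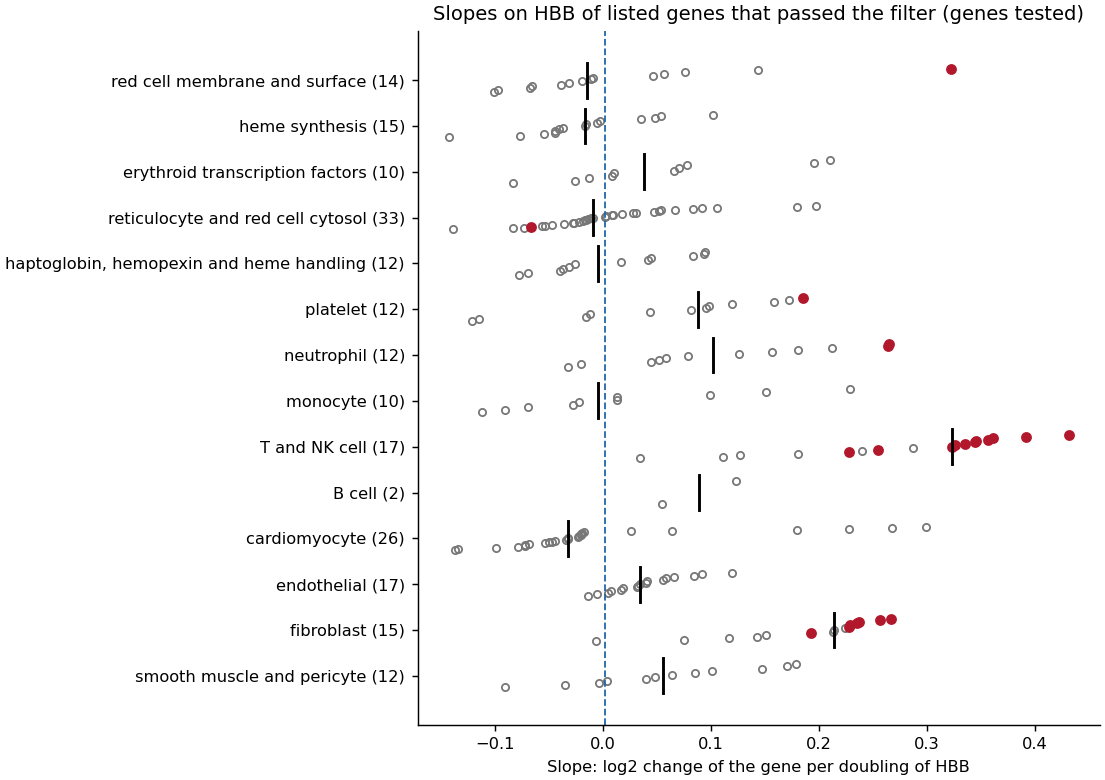
Slope on HBB of each listed gene that passed the filter, 1 point per gene and 1 row per list, with called genes filled, the median of each list as a black bar and the median of all genes, 0.0019, as a dashed line. T and NK cell markers (11 of 17 called, median 0.32) and fibroblast markers (7 of 15, median 0.21) lie to the right. Over all genes tested, 2.38% rose and 0.545% fell.

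HBB and HBD were also present among the orthologous exons, the stretches of gene that match between chimpanzee and human, where their identifiers are ENSG00000244734 and ENSG00000223609. On Pan_tro_3.0 the HBB exons lie on the minus strand of chromosome 11 from 4980274 to 4984189, in 5 intervals with 1172 bases, and the HBD exons from 4987477 to 4990167, with 1061 bases. Per kilobase, HBB ran from 0.460 to 10092 CPM with a median of 177, and HBD from 0 to 1.70 CPM with a median of 0.034. Summed over the animals, HBD had 0.203 counts for each 1000 of HBB per kilobase, and 0.220 without 529. The HBB count in these exons was 0.995 to 1.67 times the gene count, with a median of 1.18, so the 2 ways of counting did not differ by a constant factor. The factor was 1.41 to 1.67 in the 5 animals with HBB above 1000 CPM and 0.995 to 1.12 in the 4 under 10 CPM. In 529 HBB was at 11828 CPM over these exons, against 7098 CPM from its gene count. The part of this in the range of HBB, the slopes on HBB and the ratios was not tested. HBB and HBD had a rho of 0.720 in the orthologous exons and of 0.745 in the gene counts.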

How the data were processed

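Gene counts of 38 chimpanzee hearts were used as deposited. Per the labels and the methods of the study, the authors aligned 75-base single-end reads with STAR 2.6.1b to Pan_tro_3.0 and counted reads per Ensembl gene. Orthologous exon counts were made by the authors with featureCounts 1.6.3 (file header). The deposited normalized score is a log CPM, standardized per gene and quantile normalized, of genes with 8 or more reads in 75% of samples. In all, 52 columns that match no sample of the series, the human ones among them, were not used here. Symbols came from a reference table that matched 18040 of 31373 identifiers.

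Levels are gene counts as CPM of the orthologous exon total, with a pseudocount of 0.5 on the log2 scale. Fits used edgeR 4.0.16 (quasi-likelihood, TMM, filterByExpr, R 4.3.3) with Benjamini-Hochberg adjustment over all genes and a threshold of 0.05, with DESeq2 1.42.0 as an alternative. Dispersions used MASS. Extraction year, sex, RIN and center came from the sample table of the study. Scripts were tested on simulated data. Named genes were the members, list members as examples, and genes with a symbol that passed the filter. The last were the 10 with the highest Spearman's rho with HBB and the 10 in each direction with the smallest p. Some listed genes that enter the counts are not reported by name here. The members and lists were chosen with earlier results of these data known. Tests treated animals as independent although, per the study, some were first-degree relatives, so p-values may be too small.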

Additional observations from a re-analysis of the deposited data

How the results depend on the processing

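The share of genes associated with HBB depended on the samples and the model far more than the slope of HBA2 did. Against 2.92% of genes (413 genes), the share was 0.318% (45 genes) without 529, 0.0143% (2 genes) in the earlier extraction, 12.5% (1743 genes) in the later one, 14.3% with no year term (1485 genes that rose and 531 that fell), 1.16% with sex added, 4.49% with no filter (1210 genes), 1.38% at 1 CPM or more in 19 animals, 5.82% by the DESeq2 Wald test, 8.56% with HBA2 in place of HBB, 7.6% with the normal score of the rank of HBB and 0.743% at an adjusted p under 0.01. Of alternatives chosen after seeing the data, center as a covariate gave 6.56%, the mitochondrial share as a covariate 0.799%, leaving out the 2 animals farthest from the median of HBB 7.38%, no filter without 529 1.79% and no filter without 4x0043 3.24% (872 genes). Genes that rose were 81.4% of calls in the report, 66.6% by DESeq2, 91.1% without 529 and 97.1% at the stricter threshold. HBA2 kept its direction and its call in every alternative that was fitted. With no filter, 1 member, AHSP, was called between years. In the later extraction, 2 of the library measures passed against 0 in all animals, and in the earlier one rho was 0.304 for the total, -0.179 for the mitochondrial share and 0.002 for the cardiomyocyte sum, against the opposite signs over all animals. The year difference changed sign without 529 for HBA2 (-0.47, and -0.45 with no filter) and ALAS2 (-0.33 and -0.32). The cause of these changes was not tested. Depth limits HBD, CA1 and AHSP, which were below 80 counts in every library. No paired analysis was possible because all samples form 1 group.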
